A study of Mus musculus with 6 samples.

Results

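The PRAME family genes of the mouse were examined in two-cell embryos of the PIASy overexpression experiment. A gene was taken as a member when its name in the deposited table begins with Prame. This gave 15 members out of 53023 genes. RNA-seq had been performed on pools of ICR two-cell embryos collected at 28 hpi (hours post insemination), with 2 libraries in each of 3 groups and 5 embryos in each library. The non-injection group received no mRNA. The PIASy-WT group was injected into the cytoplasm with wild-type Piasy mRNA, and the PIASy-Mut group with mRNA of the C335F mutant, which is altered in the RING finger domain that SUMO ligase activity needs. Injection of either mRNA, at 100 ng/µl, took place from 1.5 to 3 hpi. The study describes keeping injected zygotes that were fluorescent at 9 hpi for culture to the blastocyst stage. Whether the same selection was made for RNA-seq is not stated in its methods. The non-injection embryos lacked the injection itself and any such selection, so only PIASy-Mut controls for them. The question put to the members was which of them are expressed at the two-cell stage, and how each stood in PIASy-WT against the other 2 groups.

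PRAME proteins are folded from leucine-rich repeats. Several of them act as the substrate receptor of a ubiquitin ligase built on cullin 2, elongin B and elongin C. In the mouse the family has grown into large clusters of tandem copies, most of which are known from the germline, the oocyte and the early embryo. Pramel7 and Pramel6 are known from the inner cell mass and from embryonic stem cells, where Pramel7 promotes the degradation of the DNA methylation cofactor UHRF1. Human PRAME is known as a melanoma antigen.

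The members lie at 3 places. Pramel7 (ENSMUSG00000025839.3, mm10 chr2:87489087-87497093, minus strand) and Pramel6 (ENSMUSG00000025838.12, chr2:87506565-87510872, plus strand) are neighbours on chromosome 2 and are transcribed away from each other across 9.471 kb. The 10 members on chromosome 4 fall within 1014 kb, from position 143394428 to 144408464, and are in order Pramel1, Pramef8, Pramef6, Pramef25, Pramef17, Pramel4, Pramel5, Pramef20, Pramef12 and Pramef12os. Pramel, Pramel3 and Prame are on the X chromosome. The table types 13 of the 15 members as protein coding. The exceptions are Pramef12os, an antisense RNA inside Pramef12, and Pramel, an unprocessed pseudogene.

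Levels are given in FPKM, which is fragments scaled by the length of the gene and by the total counted on genes. Each library held between 871663 and 1363928 fragments on genes. Spike-in RNA was added at lysis but has no row in the table used here, so every level is a share of its library. Fewer transcripts per embryo and more RNA from other genes therefore cannot be told apart. Pias4, the gene of PIASy, was at 2.98 and 3.59 FPKM in non-injection, at 862 and 611 FPKM in PIASy-Mut and at 610 and 579 FPKM in PIASy-WT, in keeping with the labels. Of the blastocyst or stem cell markers, 4 genes summed to between 5.24 and 9.37 FPKM over the libraries. The 7 cumulus cell markers summed to between 0.322 and 2.07 FPKM, and Foxl2, Amh and Inhba were at 0 in all libraries.

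Most of the members were detected in two-cell embryos. Of the 15, 12 had a value above 0 in every library, 14 reached an FPKM of 1 in at least 2 libraries, which was the condition for testing, and 10 had a mean of at least 10 fragments per library. In non-injection embryos the highest member was Pramel6, with 69.3 and 88.3 FPKM, which placed its mean above 94.7% of the 16100 genes tested. Pramel7 followed with 53.3 and 61.3 FPKM, above 92.6% of the genes tested. Pramef25 came next with 45.7 and 43.6 FPKM. The non-injection ranges of these 3 genes did not overlap.

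Pramef6, with 33.7 and 19.5 FPKM, overlapped the next in order, Pramel5, with 19.8 and 21.2 FPKM. Below these came Pramef17 with 17.6 and 11.6 FPKM, of which the lower value overlapped the genes that follow. Pramef12, Pramef20, Pramef8 and Pramel4 had overlapping values between 7.56 and 16.0 FPKM. The remaining members were low in this group. Pramel1 had 1.84 and 4.75 FPKM, and none of Pramel3, Prame and Pramef12os passed 3.37 FPKM. Pramel was listed at 0 in 5 of the 6 libraries and was represented by 2 fragments in the other one, so it was not tested.

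**Figure D1:**
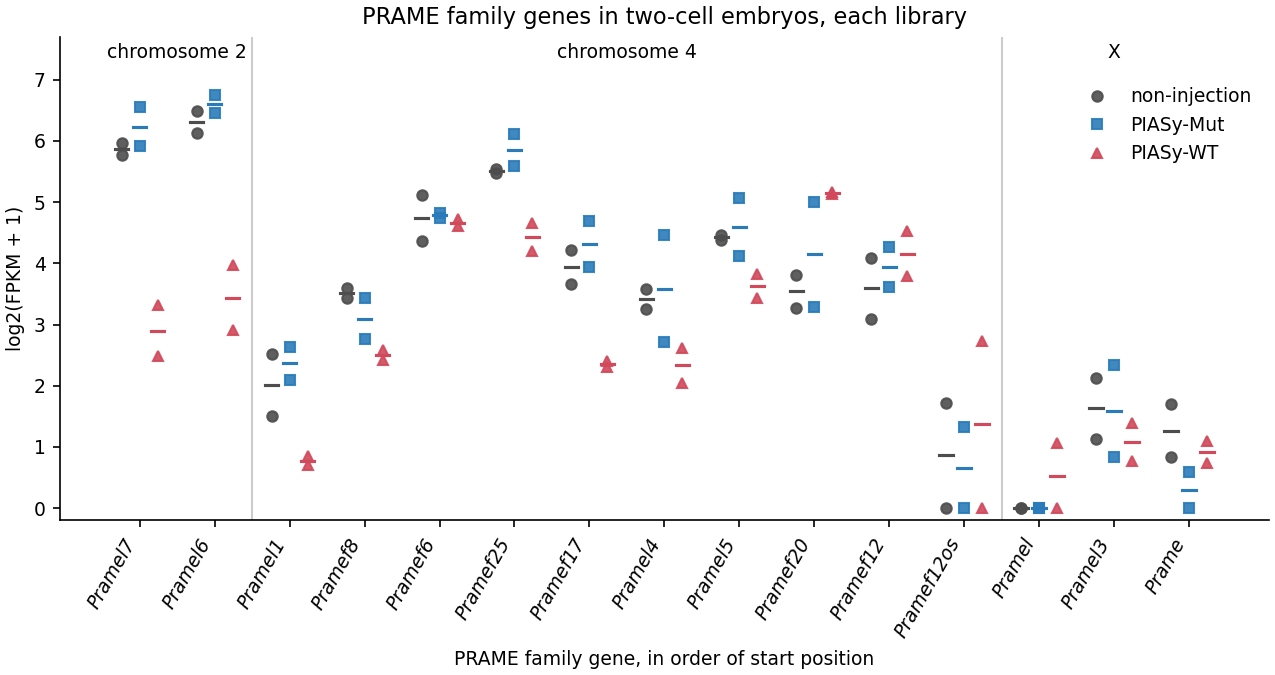
Level of each of the 15 PRAME family genes as log2(FPKM + 1) in each library, with genes ordered by chromosome and start position. Each symbol is 1 library (n = 2 per group), and the short bar is the group mean. Both PIASy-WT symbols of Pramel7 and Pramel6 lie far below the other 4 libraries, whereas those of Pramef20 lie above them.

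The largest falls were those of the chromosome 2 pair. Pramel7 was at 53.3 and 61.3 FPKM in non-injection, 92.6 and 59.1 FPKM in PIASy-Mut, and 4.60 and 8.97 FPKM in PIASy-WT. The PIASy-WT values did not overlap those of the other groups. The mean was 57.3 ± 5.71 FPKM (SD, n = 2) in non-injection against 6.78 ± 3.09 FPKM (SD, n = 2) in PIASy-WT, which is 8.45-fold higher without injection. By limma across all genes tested, the log2 fold change of Pramel7 against non-injection was -2.96 (SE 0.38, adjusted P = 0.0251). Against PIASy-Mut it was -3.33 (SE 0.38, adjusted P = 0.0221).

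Pramel6 behaved alike. It was at 69.3 and 88.3 FPKM in non-injection, 107 and 86.4 FPKM in PIASy-Mut, and 6.52 and 14.6 FPKM in PIASy-WT. Again no PIASy-WT library came near the range of the others. By limma the log2 fold change was -2.87 (SE 0.40, adjusted P = 0.0273) against non-injection, and that against PIASy-Mut was -3.16 (SE 0.40, adjusted P = 0.0235). The PIASy-WT values rest on few fragments, 13 and 22 for Pramel7 and 18 and 35 for Pramel6, compared with 110 to 230 in each of the other libraries. Since the PIASy-WT libraries are the same in both comparisons, these are not independent. Leaving out any 1 non-injection or PIASy-WT library kept the log2 fold changes of both genes against non-injection between -3.40 and -2.34 but raised the adjusted P above the threshold, to at most 0.198. Against PIASy-Mut the same happened without PIASy-Mut replicate 1 as well, with values between -3.74 and -2.64 and an adjusted P of at most 0.0960. In the fits named here, at most 1 gene of the whole table was called in the comparison they are named for. Without PIASy-Mut replicate 1 that number was 0 against PIASy-Mut, but 2760 against non-injection.

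Pramel6 exceeded Pramel7 in every library, by a ratio of FPKM between 1.15 and 1.46 across both control groups and of 1.42 and 1.63 in the PIASy-WT libraries. The last of these, from 35 and 22 fragments, lay above every control library, and the ratio was not tested. The chromosome 2 pair took 40.9% and 50.9% of the fragments of all members in non-injection, and 48.8% and 46.5% in PIASy-Mut. In PIASy-WT it took 8.22% (95% Wilson interval 5.85 to 11.4) and 16.6% (13.1 to 20.9). These intervals cover counting error only. Summed over both genes, the pair in PIASy-WT was at 0.127 of its non-injection CPM (fragments per 1000000 counted on genes), whereas the summed CPM of the chromosome 4 members was 0.758 of the non-injection level.

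**Figure D2:**
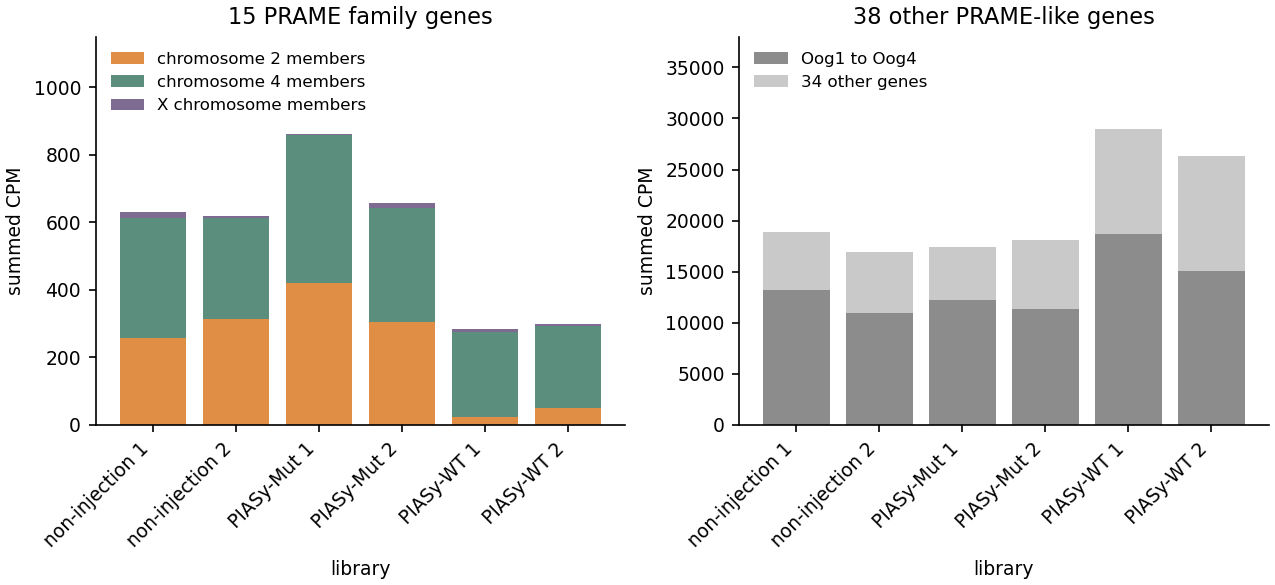
Summed CPM per library of the 15 PRAME family genes, stacked by chromosome (left), and of 38 other PRAME-like genes, with Oog1 to Oog4 shown in the darker part (right). The left bars reach 619 to 862 CPM outside PIASy-WT and 284 and 298 CPM in PIASy-WT. The right bars are higher in PIASy-WT, at 28948 and 26338 CPM, than in any other library. The vertical scales differ.

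The start regions are shown for Pramel7 and Pramel6, which fell together, and for the members whose start windows were most alike, whether or not they passed the test. Of the 15 members, 13 had a window in RefSeq (build GRCm38.p6), which reaches from 250 bases before to 50 bases after the annotated start. The windows of Pramel7 and Pramef17, on different chromosomes, were 76.4% identical. The windows of Pramel4 and Pramel5 were 83.4% identical. That of Pramel6 was at most 60.1% identical to any other window of the family. The 250 bases before the start are printed 5′ to 3′. Capitals mark runs of at least 15 bases that Pramel7 shares with Pramef17, or Pramel4 with Pramel5, on the same strand. The Pramel6 sequence shares no such run with that of Pramel7 and is in lower case throughout. The start of Pramel7 in RefSeq lies inside the longer gene of the table.
Pramel7, chr2:87492419-87492668, minus strand: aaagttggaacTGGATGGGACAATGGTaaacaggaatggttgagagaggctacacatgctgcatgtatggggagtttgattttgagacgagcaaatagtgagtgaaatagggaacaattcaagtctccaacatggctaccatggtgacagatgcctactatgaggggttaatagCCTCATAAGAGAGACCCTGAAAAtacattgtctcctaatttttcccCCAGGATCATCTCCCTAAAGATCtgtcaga
Pramef17, chr4:143994370-143994619, minus strand: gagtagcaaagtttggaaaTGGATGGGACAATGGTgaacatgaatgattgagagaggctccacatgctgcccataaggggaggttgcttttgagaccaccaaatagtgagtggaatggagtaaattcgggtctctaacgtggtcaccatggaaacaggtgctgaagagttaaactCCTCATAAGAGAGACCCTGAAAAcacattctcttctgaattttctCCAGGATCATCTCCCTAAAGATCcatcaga
Pramel6, chr2:87506315-87506564, plus strand: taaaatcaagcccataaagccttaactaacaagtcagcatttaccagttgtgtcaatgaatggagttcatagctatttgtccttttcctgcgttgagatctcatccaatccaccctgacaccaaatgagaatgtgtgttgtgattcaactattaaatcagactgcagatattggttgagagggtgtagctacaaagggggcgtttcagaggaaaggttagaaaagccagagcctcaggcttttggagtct
Pramel4, chr4:144058875-144059124, plus strand: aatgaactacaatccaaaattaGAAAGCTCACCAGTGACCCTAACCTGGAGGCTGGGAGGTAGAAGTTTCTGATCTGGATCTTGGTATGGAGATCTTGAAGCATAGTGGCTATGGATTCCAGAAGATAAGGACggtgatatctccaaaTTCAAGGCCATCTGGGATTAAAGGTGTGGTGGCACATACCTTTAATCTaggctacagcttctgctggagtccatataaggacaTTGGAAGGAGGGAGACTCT
Pramel5, chr4:144280467-144280716, minus strand: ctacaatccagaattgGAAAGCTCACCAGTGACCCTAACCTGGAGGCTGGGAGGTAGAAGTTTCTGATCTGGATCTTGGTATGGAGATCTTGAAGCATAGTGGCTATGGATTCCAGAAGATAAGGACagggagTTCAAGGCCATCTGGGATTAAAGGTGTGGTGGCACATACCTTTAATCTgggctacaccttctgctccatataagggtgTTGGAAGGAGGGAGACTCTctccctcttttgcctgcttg

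The shared runs covered 24.8% of the Pramel7 and Pramef17 sequences, the longest being 23 bases, and 71.2% of the Pramel4 and Pramel5 sequences, the longest being 111 bases. On either strand of the 13 member windows, the letters CCAAT occurred in 8, compared with 37.8% of 25821 windows of full length. These, called all windows below, are 1 per gene out of 27025 genes and leave out some chromosomes that hold no member. TAATCC occurred in 4 (Prame, Pramef6, Pramel4 and Pramel5), compared with 7.22% of all windows. TATAAA and AAGGTCA occurred in 1 each, compared with 14.2% and 4.66% of all windows. The windows of Pramel7 and Pramef17 held none of the 4 motifs, and that of Pramel6 held CCAAT.

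On chromosome 4, Pramef17 and Pramef25 were also lower in PIASy-WT than in every other library. Pramef17 (chr4:143991119-143994369, minus strand) was at 17.6 and 11.6 FPKM in non-injection, 24.9 and 14.4 FPKM in PIASy-Mut, and 4.30 and 3.97 FPKM in PIASy-WT. The fold change on the log2 scale was -1.96 (SE 0.38, adjusted P = 0.0403 by limma) against PIASy-Mut, which passed the test. Against non-injection it was -1.57 (SE 0.38, adjusted P = 0.0621), which did not. Pramef25 (chr4:143948580-143951016, minus strand) was at 45.7 and 43.6 FPKM in non-injection, 67.9 and 47.0 FPKM in PIASy-Mut, and 17.5 and 24.3 FPKM in PIASy-WT. For Pramef25 the log2 fold change was -1.41 (SE 0.30, adjusted P = 0.0487 by limma) against PIASy-Mut, and that against non-injection was -1.08 (SE 0.30, adjusted P = 0.0824).

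These 2 calls were the least secure of the members. With quantile normalization or upper-quartile scaling, neither gene passed the test against PIASy-Mut, nor did they without either non-injection library, either PIASy-WT library or PIASy-Mut replicate 1. Neither gene passed that test with no filter on low values, without the eBayes trend or when non-injection was left out of the fit. Pramef25 also missed it with a pseudocount of 0.1 and with a replicate block. On fragments recovered from the FPKM values and tested with voom, both genes passed the test against either group, with an adjusted P of 0.0397 for Pramef17 and 0.0368 for Pramef25 against non-injection.

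No other member on chromosome 4 passed the test. Pramef8 was at 11.1 and 9.74 FPKM in non-injection, 9.74 and 5.77 FPKM in PIASy-Mut, and 4.34 and 5.00 FPKM in PIASy-WT. Against non-injection, the log2 fold change of Pramef8 was -1.01 (SE 0.35, adjusted P = 0.131 by limma), while the value against PIASy-Mut was -0.59 (SE 0.35, adjusted P = 0.336). Both PIASy-WT libraries were the lowest, but the gap to the nearest PIASy-Mut library was small.

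Pramel4 was at 10.9 and 8.52 FPKM in non-injection, 21.0 and 5.53 FPKM in PIASy-Mut, and 5.15 and 3.14 FPKM in PIASy-WT. Pramel5 was at 19.8 and 21.2 FPKM in non-injection, 32.4 and 16.5 FPKM in PIASy-Mut, and 9.85 and 13.2 FPKM in PIASy-WT. The PIASy-Mut libraries of both genes were far apart, 1 of them being close to the PIASy-WT range. Against non-injection the log2 fold change was -1.08 (SE 0.61, adjusted P = 0.298 by limma) for Pramel4 and -0.79 (SE 0.38, adjusted P = 0.236) for Pramel5. Against PIASy-Mut it was -1.25 (SE 0.61, adjusted P = 0.245) and -0.96 (SE 0.38, adjusted P = 0.172). Leaving out 1 library at a time moved the values against PIASy-Mut between -2.12 and -0.37 for Pramel4 and between -1.43 and -0.49 for Pramel5. Both genes were called lower without PIASy-Mut replicate 2 (adjusted P = 0.0282 and 0.0343 by limma), where 13.2% of all genes were. That fit sets PIASy-WT against 1 PIASy-Mut library, the higher one for both genes, and takes the spread from the other groups, assuming that the lone library varies as they do. The calls thus rest on that library.

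Pramef6 was at 33.7 and 19.5 FPKM in non-injection, 27.4 and 25.8 FPKM in PIASy-Mut, and 25.3 and 23.3 FPKM in PIASy-WT. The non-injection values spanned both other groups, and both PIASy-WT values were just below those of PIASy-Mut. Against non-injection, the log2 fold change of Pramef6 was -0.08 (95% interval -0.86 to 0.71, adjusted P = 0.903 by limma), while the value against PIASy-Mut was -0.13 (95% interval -0.91 to 0.66, adjusted P = 0.839). Under quantile normalization and upper-quartile scaling these small values turned positive. A change within these intervals was not detectable here.

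Pramef20 and Pramef12, neighbours at the end of the cluster, had positive log2 fold changes in PIASy-WT that did not pass the test. Pramef20 was at 8.69 and 12.9 FPKM in non-injection, 8.78 and 31.2 FPKM in PIASy-Mut, and 34.7 and 34.0 FPKM in PIASy-WT. It was the only member with both PIASy-WT libraries above the other 4, although one PIASy-Mut library was close. Against non-injection, the log2 fold change of Pramef20 was 1.60 (SE 0.57, adjusted P = 0.134 by limma), while the value against PIASy-Mut was 0.99 (SE 0.57, adjusted P = 0.316). On recovered fragments with voom the first of these passed the test (adjusted P = 0.0281), and it did so too without either PIASy-Mut library. Against PIASy-Mut, leaving out 1 library moved the value between 0.13 and 1.85, and Pramef20 was called higher without PIASy-Mut replicate 2 (adjusted P = 0.0253 by limma), where 6.63% of all genes were. This call likewise rests on 1 PIASy-Mut library, that at 8.78 FPKM, with the spread taken from the other groups.

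Pramef12, which is known for its need in spermatogonial stem cells, was at 16.0 and 7.56 FPKM in non-injection, 11.3 and 18.3 FPKM in PIASy-Mut, and 22.0 and 12.8 FPKM in PIASy-WT. The groups overlapped. Against non-injection, the log2 fold change of Pramef12 was 0.57 (SE 0.47, adjusted P = 0.471 by limma), while the value against PIASy-Mut was 0.21 (SE 0.47, adjusted P = 0.807). Pramef12os, on the opposite strand inside it, had 0 and 2.31 FPKM in non-injection, 0 and 1.50 FPKM in PIASy-Mut, and 0 and 5.67 FPKM in PIASy-WT, from at most 5 fragments. Whether the counting used strand is not given in the sources used here, so fragments of these 2 genes could not be told apart.

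The low members gave no call. Pramel1, known from the testis, was at 1.84 and 4.75 FPKM in non-injection, 5.20 and 3.28 FPKM in PIASy-Mut, and 0.810 and 0.623 FPKM in PIASy-WT, where it had 3 and 2 fragments. Pramel3 was at 3.37 and 1.20 FPKM in non-injection, 0.786 and 4.03 FPKM in PIASy-Mut, and 1.63 and 0.706 FPKM in PIASy-WT. Prame, the mouse counterpart of the human antigen, was at 2.26 and 0.780 FPKM in non-injection, 0 and 0.506 FPKM in PIASy-Mut, and 0.665 and 1.15 FPKM in PIASy-WT. The groups overlapped for Pramel3. For Prame both PIASy-Mut values were the lowest, from 0 and 1 fragments, and the other groups overlapped. At 0 to 17 fragments per library, no difference of these 2 genes was detectable at this depth.

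Counted over the family, 2 of the 14 members tested were called lower with PIASy-WT than without injection at an adjusted P of at most 0.05, by limma, against 5.76% of all genes tested. The same 2, Pramel7 and Pramel6, also met a limit of 2 on the size of the log2 fold change, against 3.81% of all genes. Against PIASy-Mut, 4 of 14 were called lower, compared with 6.01% of all genes, and 2 of these met the size limit, compared with 4.06%. No member was called higher against either group, where 1.03% and 0.82% of all genes were. At an unadjusted p under 0.05 by limma, 6 and 6 of the 14 members were lower and 1 and 0 higher. Of the 16100 genes, 4546 and 4456 were under that p in either direction. Voom on recovered fragments tested 12 members among 10193 genes and called 4 of them lower in each PIASy-WT comparison, of which 2 and 3 met the size limit. In that fit 19% and 18.8% of all genes were lower, and 922 and 973 of the 10193 were lower past the size limit. It called 1 member higher against non-injection, beside 8.51% of the genes in that fit, and 0 against PIASy-Mut, beside 5.94%.

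**Figure D3:**
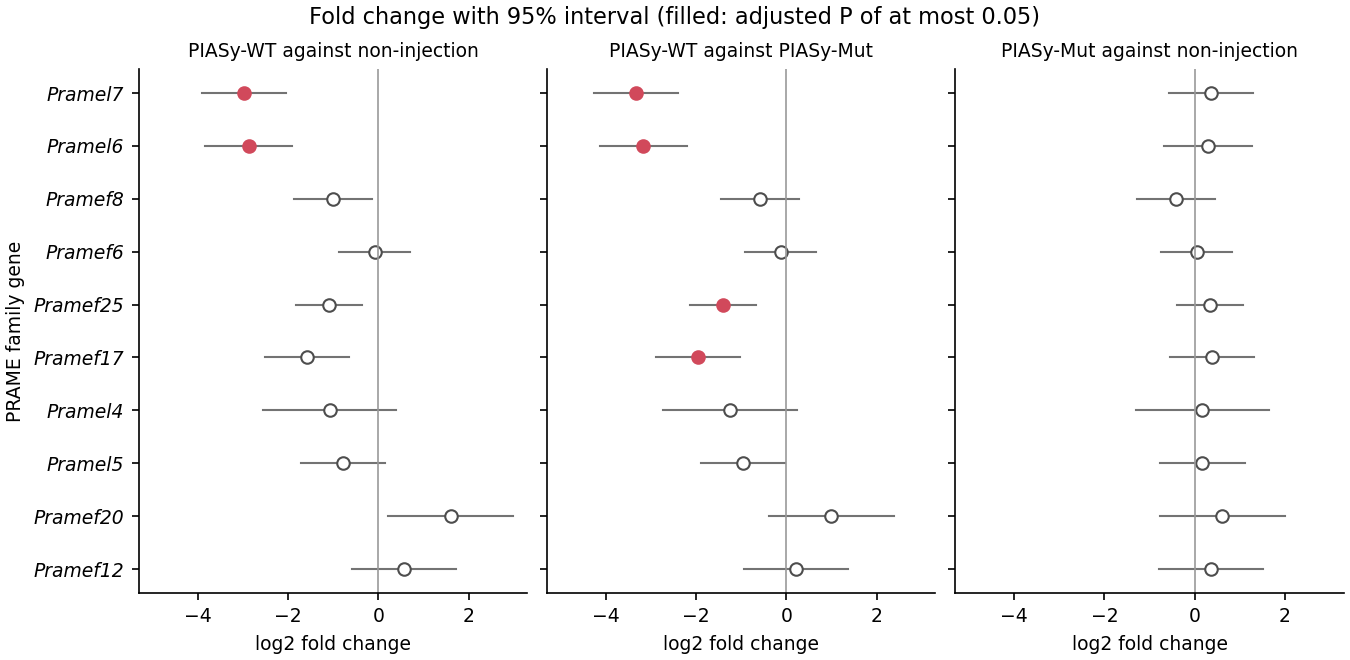
Log2 fold change with its 95% interval from limma for the 10 members with a mean of at least 10 fragments per library, in the 3 comparisons. Filled points had an adjusted P of at most 0.05. Pramel7 and Pramel6 are filled in both PIASy-WT comparisons, Pramef17 and Pramef25 only in that against PIASy-Mut, and no point is filled in PIASy-Mut against non-injection.

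The median log2 fold change of the 14 members was -0.90 against non-injection, beside 0.01 for all genes, and -0.78 against PIASy-Mut, beside -0.03. The log2 fold change was negative in 11 and 10 of the 14, beside 7911 and 8255 of all 16100 genes. Both PIASy-WT libraries were below all 4 others for 8 members, namely Pramel7, Pramel6, Pramel1, Pramef8, Pramef25, Pramef17, Pramel4 and Pramel5, beside 24.4% of all genes tested. Both were above all others for 1 member, beside 19.9% of all genes. Over the whole table, calls numbered 928 lower and 166 higher against non-injection, and 679 and 250 with upper-quartile scaling. Against PIASy-Mut they numbered 968 and 132, and 537 and 164 with that scaling. The scaling moved the median of all genes to 0.18 and 0.20.

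Between PIASy-Mut and non-injection no member passed the test. By limma 0 of the 14 members were called, and 0 had an unadjusted p under 0.05, beside 718 of the 16100 genes tested. The share of all genes called lower was 0% and that called higher was 0.00621%, which is Pias4 alone. Voom called no member either. The log2 fold changes of the members ran from -0.97 for Prame to 0.61 for Pramef20, with a median of 0.23. For Pramel7 the value was 0.37 (95% interval -0.56 to 1.30) and for Pramel6 it was 0.29 (95% interval -0.67 to 1.26), so a fall of the size seen in PIASy-WT lies outside both intervals.

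Some markers of the stage also differed in level between the libraries. The 7 two-cell markers summed to 1307 and 1319 FPKM in non-injection, 1448 and 1455 FPKM in PIASy-Mut, and 842 and 605 FPKM in PIASy-WT, and 3 of them (Zfp352, Tcstv3 and Obox3) were lowest in both PIASy-WT libraries, whereas Zscan4c, Zscan4d, Usp17la and Tcstv1 overlapped. The 6 oocyte-derived markers summed to 3150 and 2684 FPKM in non-injection, 2996 and 4369 FPKM in PIASy-Mut, and 4899 and 4126 FPKM in PIASy-WT. The oocyte-derived sums overlapped between PIASy-Mut and PIASy-WT. Among these genes, Bmp15 was highest and Zp3 lowest in both PIASy-WT libraries. None of the 13 genes was at 0 in every library, and their differences were not tested. Their part in the levels of the PRAME genes was not tested.

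Copies of PRAME genes share sequence, and this limits how far the values of single members can be trusted. The coding sequences of the 13 protein-coding members were between 52.2% and 85.2% identical in pairs, with a median of 59.2%, the closest pair being Pramel4 and Pramel5. Pramel7 was closest to Pramef17 among the members, at 80.2%, and only 60.2% identical to its neighbour Pramel6. Against genes of the family with other names the identity was higher, at 99.3% for Pramef17 and Gm13128, 95.7% for Pramef6 and Gm13078 and 94.4% for Pramef25 and BC080695.

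The authors sequenced pairs of a 50-base read and a shorter mate, and counted reads that mapped uniquely. Of the 50-base sequences in the transcripts of each member, under 2% also occurred in transcripts of another gene for 9 of the 15 members, Pramel7 (1.43%), Pramel6 (0%), Pramef8 and Pramef20 among them. The share was 25.9% for Pramel5, 33.7% for Pramef6, 63.5% for Pramef25, 73.5% for Pramef17, 81.8% for Pramel3 and 87.4% for Pramel4. Fragments of these 6 genes could have been dropped or given to a copy, and their values are uncertain. Only exact 50-base matches in annotated transcripts were searched, not matches of the shorter mates or elsewhere in the genome. The check therefore does not clear the other 9 members. The number of copies in ICR mice was not measured here.

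The copies closest in coding sequence were set beside the members. Gm13128, almost identical to Pramef17, was at 28.6 and 24.3 FPKM in non-injection, 41.1 and 15.1 FPKM in PIASy-Mut, and 5.19 and 6.48 FPKM in PIASy-WT. The log2 fold change of Gm13128 was -2.01 (SE 0.48, adjusted P = 0.0606 by limma) against non-injection and -1.94 (adjusted P = 0.0652) against PIASy-Mut, so that it passed neither test. Gm13078, the copy of Pramef6, was at 116 and 90.7 FPKM in non-injection, 176 and 112 FPKM in PIASy-Mut, and 54.5 and 32.2 FPKM in PIASy-WT. It was called lower against PIASy-Mut (log2 fold change -1.72, adjusted P = 0.0488), whereas Pramef6 was not, and the difference between them was not tested. BC080695, the copy of Pramef25, was called lower against PIASy-Mut too (log2 fold change -1.47, adjusted P = 0.0482).

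The genes that share most 50-base sequences with a member were in part different ones. Pramef6 shared most with Gm13083 (29.6% of its 50-base sequences), which was at 21.1 and 5.38 FPKM in non-injection, 11.0 and 6.98 FPKM in PIASy-Mut, and 8.88 and 8.12 FPKM in PIASy-WT and was not called (log2 fold change against non-injection -0.32, adjusted P = 0.760 by limma). Pramef25 shared most with Gm13040 (34.1%) and Pramel3 with Gm15023 (71.1%), both of which were listed at 0 in every library. Pramel4 shared most with Gm13102 (85.0%), which was above 0 only in PIASy-Mut replicate 1, at 0.829 FPKM.

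Other genes of the same protein family, whose names in the table do not begin with Prame, were taken as a second list. It holds Oog1 to Oog4, which are known from the oocyte, and every gene that RefSeq now names or lists as Prame. These are 38 genes, 18 on chromosome 4, 18 on chromosome 5 and 2 on chromosome 12, and 34 of them were tested. A few of them were very abundant, and Oog3 alone was at 5518 to 9303 FPKM. The median over the list of the non-injection mean was 15.7 FPKM, beside 10.8 FPKM for the members, and 10 of the 38 were under 1 FPKM. Their summed CPM was 18856 and 16946 without injection, 17465 and 18150 with PIASy-Mut, and 28948 and 26338 with PIASy-WT. That of the members, in the same order, was 631 and 619, 862 and 659, and 284 and 298. The sums of the 2 lists thus stood on opposite sides, with no overlap between PIASy-WT and the other groups in either.

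Of the 34, 3 were called lower and 1 higher against non-injection, beside the 5.76% and 1.03% of all genes, so that the lower calls were near the share of all genes. The lower ones were B020004J07Rik (log2 fold change -2.06, adjusted P = 0.0228 by limma), Gm3106 (-3.42, adjusted P = 0.0290) and Gm3139 (-3.62, adjusted P = 0.0326). Gm3106 went from 17.5 and 18.9 FPKM in non-injection to 0.317 and 1.46 FPKM in PIASy-WT. The higher one was C87414 (1.51, adjusted P = 0.0433), with 103 and 120 FPKM in non-injection, 72.8 and 121 FPKM in PIASy-Mut, and 316 and 320 FPKM in PIASy-WT. Against PIASy-Mut, 5 were called lower, the same 3 with BC080695 and Gm13078, and 1 higher, again C87414, beside 6.01% and 0.82% of all genes. The median log2 fold change of the list was 0.89 against non-injection, and 0.62 when set against PIASy-Mut. Values were positive in 21 and 22 of the 34, beside 8129 and 7773 of all 16100 genes. Both PIASy-WT libraries were above all 4 others for 16 of the 34, beside 19.9% of all genes. They were below all others for 8, beside 24.4%. Oog3 itself was not called (0.43, adjusted P = 0.420). Voom on recovered fragments tested 27 of these genes and made more calls. It called 7 lower and 11 higher against non-injection, beside 19% and 8.51% of all 10193 genes in that fit, and 7 lower and 8 higher against PIASy-Mut, beside 18.8% and 5.94%.

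**Figure D4:**
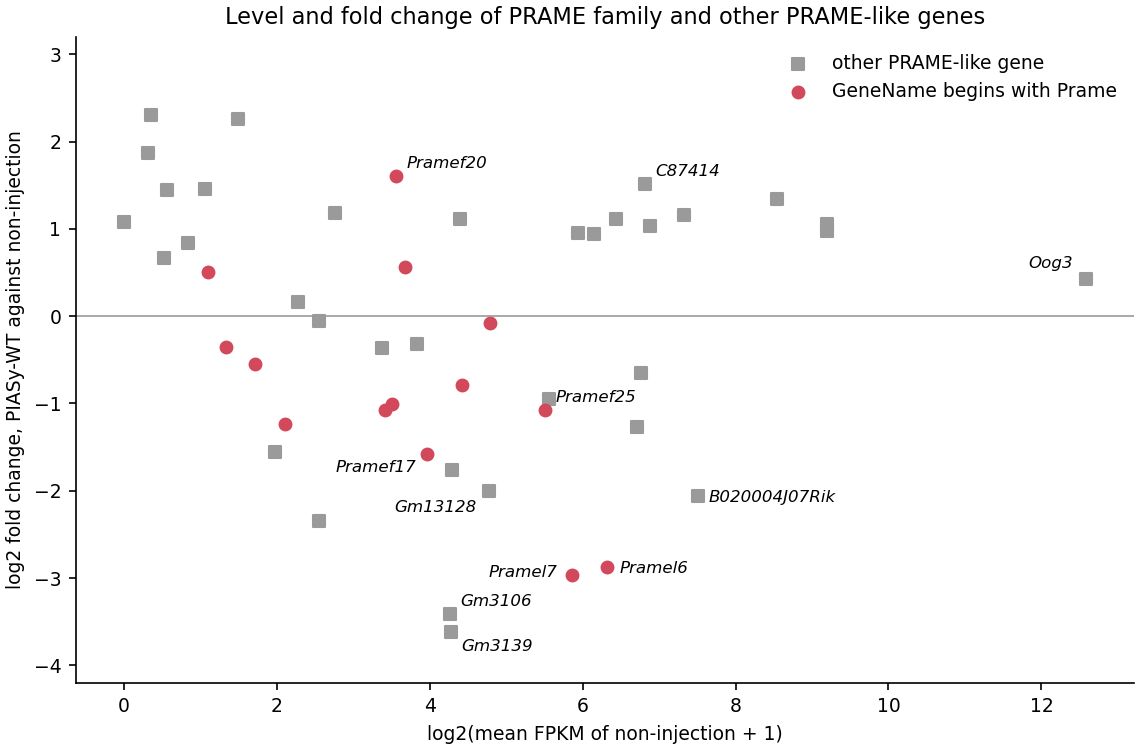
Log2 fold change of PIASy-WT against non-injection plotted against log2(mean FPKM + 1) of non-injection for the 14 members tested (circles) and 34 other PRAME-like genes (squares). Pramel7 and Pramel6 are high and strongly negative, Oog3 is the most abundant and near 0, and many squares at high level lie near 1.

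Fold changes of genes with similar start windows are given as a description. A window joined a group when it was at least 70% identical to any window in it. Other pairs within a group could thus be less alike. Pramel7, Pramef17 and Gm13128 formed a group with values of -2.96, -1.57 and -2.01 against non-injection. Pramel4 and Pramel5 formed another with -1.08 and -0.79. A group of 10 genes, among them Oog1 to Oog4, ran from -0.06 to 1.34, and 4 genes of chromosome 5 ran from -3.42 to -1.56. Of another 6 genes of chromosome 5, 3 were tested and ran from 0.67 to 1.87. In the pair of Pramef6 and Gm13078 the values were unlike, at -0.08 and -1.27, and in that of BC080695 and Gm13119 they had opposite signs, at -0.95 and 1.11. Members of a group share sequence and may share fragments, and no test was made.

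A list of 11 genes tied to PRAME proteins by their known roles was read from the same fit. It holds Cul2, Elob, Eloc and Rbx1 of the cullin 2 ligase, Uhrf1, the genes Lifr, Il6st, Jak1 and Stat3 of LIF signalling, which acts upstream of Pramel7, and Rara and Ezh2, whose products are described as partners of human PRAME. Of these, 9 were tested, and Lifr and Rara were too low. Elob, which encodes elongin B, was at 260 and 252 FPKM in non-injection, 326 and 149 FPKM in PIASy-Mut, and 63.9 and 63.4 FPKM in PIASy-WT. It was the 1 gene called lower against non-injection (log2 fold change -1.99, adjusted P = 0.0408 by limma), beside 5.76% of all genes, and it missed the threshold against PIASy-Mut (-1.78, adjusted P = 0.0501). Eloc, for elongin C, was at 917 and 774 FPKM in non-injection, 1057 and 619 FPKM in PIASy-Mut, and 348 and 330 FPKM in PIASy-WT. Neither log2 fold change of Eloc passed the test, that against non-injection being -1.31 (adjusted P = 0.0637 by limma) while the other, against PIASy-Mut, was -1.25 (adjusted P = 0.0694). Uhrf1, the target of Pramel7, was at 10.8 and 6.64 FPKM in non-injection, 7.51 and 10.2 FPKM in PIASy-Mut, and 12.6 and 10.6 FPKM in PIASy-WT (0.40, adjusted P = 0.496). Il6st, Stat3 and Ezh2 were not called, with log2 fold changes of 0.57, 0.14 and 0.29 against non-injection (adjusted P of 0.362, 0.855 and 0.551 by limma) and of 0.35, 0.43 and 0.27 against PIASy-Mut (0.577, 0.549 and 0.588). By limma 0 of the 9 were called higher against either group, beside 1.03% and 0.82% of all genes. At an unadjusted p under 0.05 by limma, 3 and 3 were lower and 0 and 1 higher. Of all 16100 genes, 4546 and 4456 were under that p in either direction. Voom on recovered fragments called 3 lower and 0 higher against non-injection, namely Elob, Eloc and the cullin ligase subunit Rbx1. Against PIASy-Mut it called 3 lower, Elob, Eloc and Cul2 (the gene of cullin 2, adjusted P = 0.0312), and 1 higher, the kinase gene Jak1. In that fit 19% and 18.8% of all genes were called lower, and 8.51% and 5.94% higher. In PIASy-Mut against non-injection, limma and voom called 0 of these genes, and 0 had an unadjusted p under 0.05.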

How the data were processed

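RNA-seq had been done on 6 libraries of 5 pooled two-cell embryos, 2 in each group, and groups and replicate numbers were taken from the labels. The study counts its n as biological replicates and gives an n of 2 for these libraries. Whether the pools came from separate collections is not given in the sources used here, and P-values measure the spread between these pools. The authors made cDNA with the SMART-Seq v4 kit, built libraries with Nextera XT, trimmed reads with Trim Galore, aligned them with STAR to the mm10 genome, counted reads that mapped uniquely with featureCounts, and deposited 1 table of FPKM values. The annotation release and the use of strand are not given in the sources used here. The deposited gene length in bases, a further column, was used to recover fragments: FPKM times length, divided by the value of 1 fragment, was whole within 0.01 for 100% of values above 0.

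Tests used limma 3.58.1 (R 4.3.3) on log2(FPKM + 1), with all 6 libraries, a mean-variance trend and Benjamini-Hochberg adjustment. A gene was tested if 2 or more libraries reached 1 FPKM, which left 16100 genes (30.4%). The pseudocount of 1 understates changes of low genes. Members tested are named with every library's value, and those with a mean of at least 10 fragments also with their fold change. The members and lists were chosen with earlier results of these data known, and the 11 partner genes were listed from general knowledge. RefSeq names 49 genes Prame, 48 of which matched the table. Start windows came from RefSeq and coding sequences from GENCODE, aligned with Biopython 1.88. The procedure was also run on simulated data with the same assumed spread for every gene, and no result here rests on that run. As alternatives, the pseudocount, the filter, the scaling and the eBayes trend were changed, and fits were made with the 4 libraries of a comparison, a replicate block, voom on recovered fragments and leaving out each library. Repeat elements were not analysed here.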

Additional observations from a re-analysis of the deposited data

How the results depend on the processing

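The log2 fold changes of Pramel7 and Pramel6 in PIASy-WT stayed at -2.34 or below in all 16 alternatives, and only their calls changed. The number of members called lower in PIASy-WT, 2 against non-injection and 4 against PIASy-Mut, was 1 and 2 with no filter on low values, in which case Pramel6 missed the threshold against non-injection. It was 4 and 0 when the third group was left out of the fit, where 0 of 14510 genes of the whole table were called against PIASy-Mut and 1998 lower and 1047 higher against non-injection. It was 4 against non-injection with voom on recovered fragments, where 12 members were tested and 19% of all genes were lower, compared with 5.76%. Against PIASy-Mut it was 2 with quantile normalization, with upper-quartile scaling and with eBayes without trend, beside 3.04%, 3.34% and 2.88% of all genes. With the limit of 2 on size, 1 member was left against non-injection with no filter, beside 144 of 27826 genes. Against PIASy-Mut 0 were left without the third group, beside 0 of 14510. With a pseudocount of 0.1 or 0.5 and with voom, 3 met the limit against PIASy-Mut, beside 661, 703 and 973 genes. Without the third group and with voom 1 member, Pramef20, was called higher against non-injection, beside 7.25% and 8.51% of all genes. Leaving out 1 library at a time, which leaves a group of 1 library that is assumed to vary like the others, members called lower numbered 0 to 4 against non-injection and 0 to 6 against PIASy-Mut, those past the size limit 0 to 2 and 0 to 4, and those called higher 0 to 1 in each. The 4 came without either PIASy-Mut library, where 1866 and 1884 genes of the whole table were lower, and the 6 without PIASy-Mut replicate 2, where 2032 of 15360 were. At most 1 gene of the whole table was called in 4 of the 6 such fits against non-injection and in 5 of the 6 against PIASy-Mut. The summed level of the members in PIASy-WT was 0.466 of non-injection in CPM and 0.494 in FPKM.

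The labels share replicate numbers between groups but do not say that a number marks a shared day or litter, and deviations of same-numbered libraries were nearly uncorrelated, with values from 0.0037 to 0.085. With the replicate block 2 and 3 members were called lower, beside 4.47% and 4.96% of all genes. Pramef25 was the 1 call lost, against PIASy-Mut (log2 fold change -1.41), and no call was gained.

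Of 480 fold changes of the 10 members under the alternatives, 407 kept direction and call, 43 lost the call, 16 gained it and 14 changed sign. None of the 14 had a call. They were Pramef6 against non-injection (0.23 with quantile normalization, 0.17 with upper-quartile scaling, -0.46 to 0.30 leaving out 1 library) and against PIASy-Mut (0.25 and 0.20 with those scalings). In PIASy-Mut against non-injection, Pramef6 was at -0.023 with quantile normalization, -0.027 with upper-quartile scaling and -0.33 to 0.43 leaving out 1 library. In the same way Pramef12 ran from -0.15 to 0.58 in PIASy-WT against PIASy-Mut and from -0.14 to 0.85 in PIASy-Mut against non-injection. In the latter comparison Pramef20 ran from -0.25 to 1.47 (negative without PIASy-Mut replicate 2), and Pramel4 from -0.71 to 1.05 and Pramel5 from -0.30 to 0.64 (both negative without PIASy-Mut replicate 1). The cause of the changes in calls was not tested. Depth limits Pramel1, Pramel3, Prame, Pramel and Pramef12os, which had at most 17 fragments in any library.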
